A study of Mus musculus with 189 samples.

Results

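Blastomeres of 8-cell mouse embryos were compared with blastomeres of 16-cell embryos (morulae) by quantitative PCR of 156 genes for chromatin modifiers, transcription factors and signalling molecules. The samples were chosen by their labelled stage and not by any measured value, and they made up 53 of the 189 samples of the series. The 8-cell group held 27 samples from 7 embryos, of which embryos 1 to 3 were lysed whole and embryos 4 to 7 were dissociated into 24 single blastomeres. The 16-cell group held 26 samples from embryos 4 and 5, with 20 single blastomeres and 6 groups of 2 or 3 blastomeres. The samples of these 16-cell embryos held 18 and 17 cells, so both had passed the nominal number of 16 cells, and their source label names a blastocyst where their stage label names a morula. A further 3 whole 16-cell embryos were kept apart and used as a second, separate comparison. All embryos were untreated, came from superovulated (C57BL/6 x DBA/2) F1 females mated with C57BL6 males, and grew in culture (KSOMaa, reduced oxygen).

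Between these stages the mouse embryo compacts, its blastomeres become polarised, and the next division gives outer cells, which form the trophectoderm, and inner cells, most of which form the inner cell mass. Cdx2 and Gata3 are transcription factors of the trophectoderm, while Nanog, Sox2 and Pou5f1 (OCT4) act in the pluripotent inner cells. Histone methyltransferases and demethylases, Polycomb complexes and HP1 proteins set and read chromatin marks. Many of their transcripts pass from maternal to embryonic supply in early development. The study places the start of genome activation in the zygote, well before these divisions.

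Every level given here is 30 minus the threshold cycle (Ct) of the gene, minus the same quantity averaged over the control genes Hnrnpr, Ssu72 and Ube2e1. It is a log2 scale on which 1 unit is 1 cycle, levels of different genes are not comparable because each has its own assay, and a gene was counted as detected where its Ct was below 30. Reactions without signal were deposited at a Ct of 30, so their level follows from the control Ct of the sample and lay between -17.46 and -13.94 in 8-cell samples and between -16.42 and -12.12 in 16-cell samples. The control genes had a mean Ct of 15.21 ± 0.75 (SD, n = 24) in single 8-cell blastomeres and 16.04 ± 0.85 (SD, n = 20) in single 16-cell blastomeres. Reactions without signal made up 12.5% of the 8-cell and 12.3% of the 16-cell values. The 16-cell embryo 5 blastomere 11 stood apart with 44 genes not detected, against a median of 18 in the 16-cell samples, and a control Ct of 17.9. Cells of 1 embryo share that embryo, so they were averaged per embryo before testing. In whole embryos fewer expressing cells and less RNA per cell cannot be told apart. The comparison of embryo means has whole embryos in its 8-cell group only. Stage and kind of sample are therefore partly confounded in it, above all for genes not detected in every blastomere.

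Pax6, a transcription factor known from eye and brain development, and Mll1, an H3K4 methyltransferase, had the widest differences between embryo means. Pax6 levels ran from -6.80 over a median of -2.41 to -0.65 in 27 8-cell samples, and from -16.19 over a median of -13.99 to -3.55 in 26 16-cell samples. All 27 8-cell samples detected Pax6, against 3 of the 26 16-cell samples. The few 16-cell samples with Pax6 lay within or just below the 8-cell range, and every other 16-cell sample was without signal. Embryo means were fitted by limma with 1 spread shared over 58 units of 8 stages, here and below. These units were oocytes, embryos and 1 average of earlier blastomeres whose labels name no embryo. The difference of embryo means was -10.49 (SE 1.24, 7 against 2 embryos), with an adjusted p of 1.92e-09 by limma. Its size rests on the value given to the 23 16-cell samples without signal, and it lay between -12.4 and -2.63 under other settings. In whole embryos Pax6 was detected at both stages. Its levels were -1.76, -2.04 and -6.56 in the 8-cell embryos and -6.72, -6.24 and -7.12 in the 16-cell embryos. The 8-cell embryo 3 lay among the 16-cell embryos, and the difference of -3.24 (SE 1.34) had an adjusted p of 0.124 by limma.

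Mll1 took the opposite course. Its level ran from -17.46 over a median of -14.50 to -5.27 in 8-cell samples and from -15.47 over a median of -2.57 to -1.31 in 16-cell samples. It was detected in 5 of 27 samples at the 8-cell and in 25 of 26 at the 16-cell stage. No 8-cell sample reached the 16-cell median, and a single 16-cell sample was without signal. The difference of embryo means was 9.11 (SE 1.91), with an adjusted p of 0.000249 by limma. The 22 8-cell samples without signal set its size, which lay between 3.96 and 10.3 under other settings. Whole embryos gave levels of -7.93, -17.46 and -9.63 at the 8-cell and -3.60, -3.26 and -2.32 at the 16-cell stage, which did not overlap. That difference of 8.62 (SE 2.50) had an adjusted p of 0.0507, just above the threshold of 0.05. In whole embryos Rbp2 at 9.78 and Prdm6 at -8.88 (not called, adjusted p = 0.0557 by limma) differed by more than either gene, and both had whole embryos without signal.

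**Figure D1:**
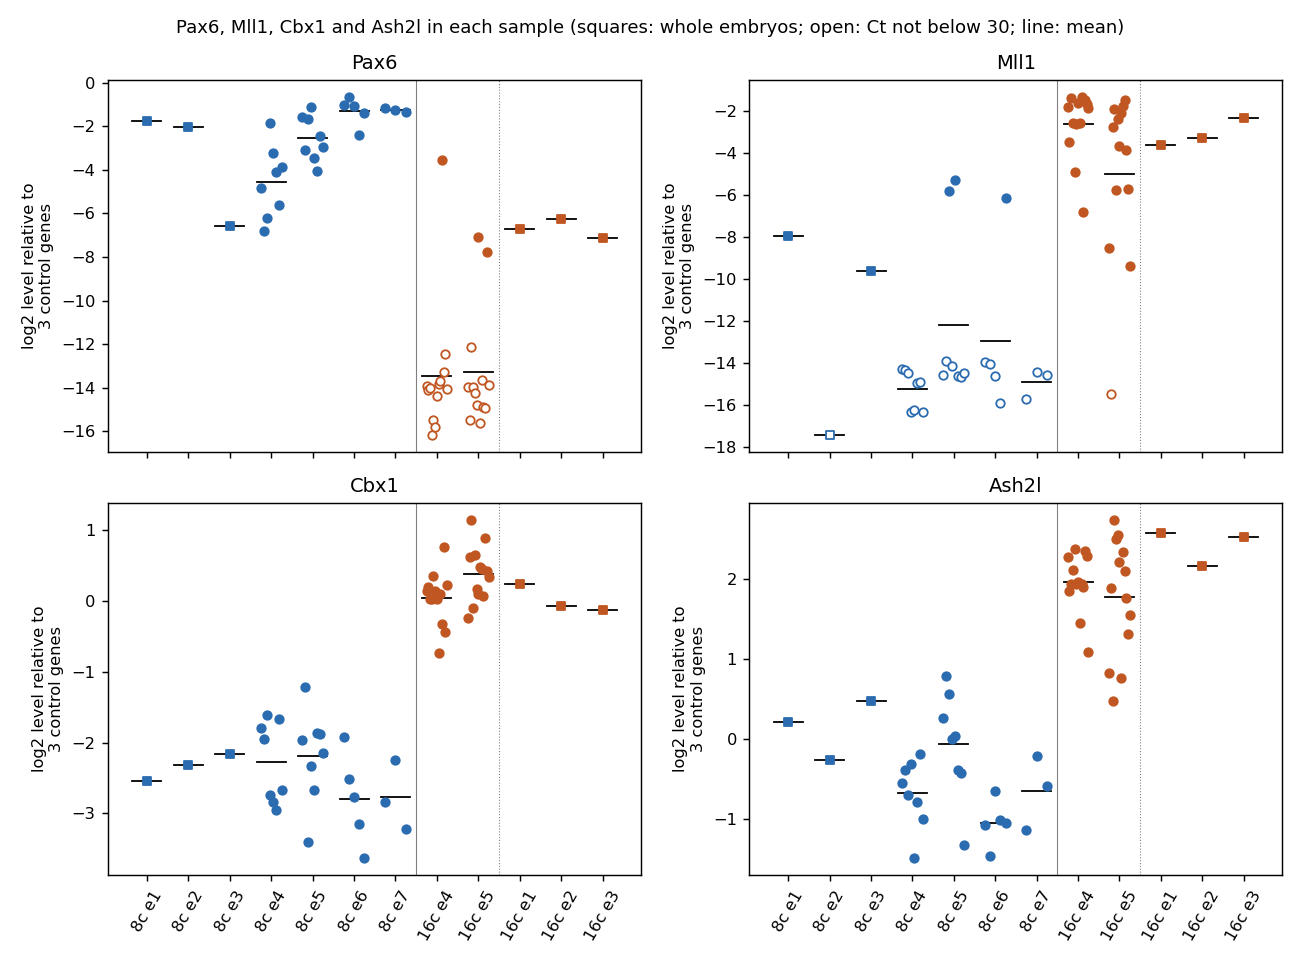
Levels of Pax6, Mll1, Cbx1 and Ash2l (vertical axis, log2 relative to 3 control genes) in each sample, by embryo; 8-cell embryos 1 to 7 are blue, dissociated 16-cell embryos 4 and 5 and whole 16-cell embryos 1 to 3 are orange, squares are whole embryos, open symbols were not detected and lines are embryo means. Pax6 is detected in all 27 8-cell samples and in 3 of 26 samples of 16-cell embryos 4 and 5, Mll1 in 5 and 25, and the Cbx1 levels of the stages do not overlap.

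Cbx1, which codes for the HP1 protein HP1beta, and Ash2l, a core subunit of the H3K4 methyltransferase complexes, were detected in every sample of both stages. Cbx1 ran from -3.63 over -2.32 to -1.22 in the 8-cell samples (lowest, median and highest) and from -0.74 over 0.16 to 1.14 in the 16-cell samples. The highest 8-cell sample thus lay below the lowest 16-cell sample. The difference of embryo means was 2.64 (SE 0.27, adjusted p = 2.42e-11 by limma). Ash2l ran from -1.50 over -0.43 to 0.79 and from 0.47 over 1.94 to 2.74, so only the edges of the samples overlapped, and the embryo means not at all. Its difference was 2.15 (SE 0.35, adjusted p = 3.24e-06 by limma). Whole embryos gave 2.35 (SE 0.22, adjusted p = 0.00388) for Cbx1 and 2.28 (SE 0.27, adjusted p = 0.00452) for Ash2l by limma.

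Across all 156 genes, 31 were higher at the 16-cell stage at an adjusted p below 0.05 (19.9%) and 13 were lower (8.33%), or 28.2% in either direction. The median difference of all genes was 0.32. This split depended on the scale. Relative to the median of the genes detected in every sample, which moved the all-gene median to -0.08, 18 genes were higher (11.5%) and 19 lower (12.2%). With no control gene at all 1 was higher (0.641%) and 15 were lower (9.62%) at a median of -1.04. In the deposited normalized table, scaled to Gapdh, Hspa8 and Lmnb1, which the same table marks as failing its quality control, 3 were higher (1.92%) and 76 lower (48.7%) at a median of -1.55. Of the 31 genes called higher, 17 had a positive difference under each of 7 scalings, and all 13 genes called lower had a negative one. The highest all-gene median of these scalings was 0.41, without Hnrnpr, so none moved genes far up. They therefore could not test the falls as they tested the rises. In whole embryos, leaving out all control genes moved the median up to 2.79. A change of scaling moves the embryo-mean difference of every gene by the same amount, so the order of the genes is the same under each and only their place against 0 moves. The all-gene shares of 19.9% higher and 8.33% lower are the background of every list count below. Without 16-cell embryo 4 the calls fell to 11 higher and 7 lower, and without embryo 5 to 13 higher and 6 lower.

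The same genes could be followed in embryos that share no sample: 3 whole against 3 whole embryos, and 4 against 2 dissociated embryos. Whole embryos gave 38 genes higher (24.4%) and 6 lower (3.85%), and dissociated embryos gave 28 higher (17.9%) and 9 lower (5.77%). Called in both, in the same direction, were 23 genes, 18 higher and 5 lower, which is 52.3% of the whole-embryo calls and 62.2% of the others. No gene was called in opposite directions. Of the 44 genes called over embryo means, 17 were called in the same direction in both of these comparisons. With the 8-cell and 16-cell embryos alone in the fit of embryo means, 27 of the 44 kept their call. Of the 58 genes called in either comparison, 56 had the same sign in both, as did 132 of all 156. The differences correlated across genes with a Pearson r of 0.731 and a Spearman rho of 0.838, a description over 156 genes that are not independent. By scale, whole embryos gave 17 higher (10.9%) and 24 lower (15.4%) relative to the sample median, and 8 (5.13%) and 110 (70.5%) in the deposited table. Without any control gene 133 were higher (85.3%) and 0 lower (0%) in whole embryos, with 135 genes at an unadjusted p below 0.05 by limma. The control genes had a mean Ct of 13.16 in whole 8-cell and of 10.74 in whole 16-cell embryos. The source of this gap was not tested. Dissociated embryos gave 17 higher (10.9%) and 16 lower (10.3%) relative to the sample median, 7 (4.49%) and 51 (32.7%) in the deposited table, and 14 (8.97%) and 13 (8.33%) without control genes. The difference itself differed between whole and dissociated embryos for 1 gene (0.641%), Cbx6, by an interaction test in limma.

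**Figure D2:**
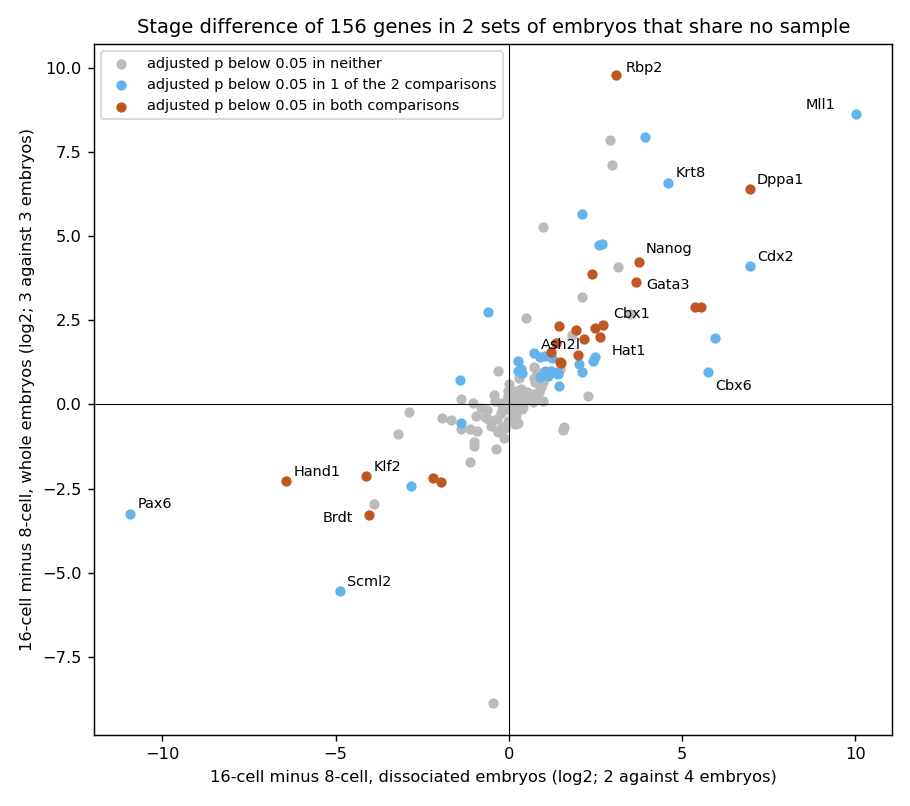
Difference of 16-cell minus 8-cell (log2) in whole embryos (vertical, 3 against 3) against that in dissociated embryos (horizontal, 2 against 4), 1 point for each of 156 genes, coloured by whether neither, 1 or both comparisons gave an adjusted p below 0.05. The 23 genes called in both lie in the upper right and lower left; Rbp2 at 9.78 and 3.11 and Pax6 at -3.24 and -10.93 lie far from equal differences.

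Embryo means separated the stages for many genes and single samples for few. The embryo means of the stages did not overlap for 43 genes higher (27.6%) and 14 lower (8.97%), and in whole embryos the counts were 61 (39.1%) and 18 (11.5%). Over all 53 samples there were 3 such genes higher (1.92%) and 0 lower (0%), and these were Cbx1, Hat1 and Zfp42. Hat1, a histone acetyltransferase acting on newly made H4, ran from -0.03 over 0.50 to 1.57 in the 8-cell samples and from 2.54 over 3.26 to 4.24 in the 16-cell samples. The groups lay clearly apart, by a difference of embryo means of 2.64 (SE 0.38, adjusted p = 2.72e-07 by limma). Zfp42 (REX1), a zinc finger protein of pluripotent cells, ran from -3.70 over -1.82 to -0.83 and from -0.74 over 0.19 to 1.06. Its groups just missed each other, at a difference of 2.07. Its SE of 1.55 over all stages, where the gene varied widely, left it uncalled (adjusted p = 0.382 by limma). With the 8-cell and 16-cell embryos alone in the fit, where 27 genes were higher (17.3%) and 10 lower (6.41%), its adjusted p was 0.00118, and whole embryos gave 1.45 (SE 0.29, adjusted p = 0.0214 by limma).

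The promoters of these 3 separated genes are shown beside that of Klf2, a gene that was lower in all 3 comparisons. Each runs from 250 bases before to 50 bases after the start site, 5′ to 3′ on the strand of the gene, from RefSeq on GRCm38.p6, with capitals marking the letters GGGCGG (a GC box) or CCGCCC, its reverse complement. Of the 156 genes 155 matched 1 RefSeq gene, 139 by the same symbol.
Cbx1, chr11:96788885-96789184, plus strand: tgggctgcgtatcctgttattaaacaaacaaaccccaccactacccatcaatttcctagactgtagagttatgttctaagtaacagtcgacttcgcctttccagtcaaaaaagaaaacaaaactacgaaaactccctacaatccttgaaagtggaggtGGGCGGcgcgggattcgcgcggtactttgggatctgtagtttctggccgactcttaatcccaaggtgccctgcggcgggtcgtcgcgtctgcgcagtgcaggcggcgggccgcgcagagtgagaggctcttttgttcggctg
Hat1, chr2:71389010-71389309, plus strand: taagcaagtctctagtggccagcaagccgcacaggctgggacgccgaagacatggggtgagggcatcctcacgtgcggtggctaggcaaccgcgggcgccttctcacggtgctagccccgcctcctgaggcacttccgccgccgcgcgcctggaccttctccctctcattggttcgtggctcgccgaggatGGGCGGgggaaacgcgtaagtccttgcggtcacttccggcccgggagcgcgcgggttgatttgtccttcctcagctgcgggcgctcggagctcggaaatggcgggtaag
Zfp42, chr8:43306960-43307259, minus strand: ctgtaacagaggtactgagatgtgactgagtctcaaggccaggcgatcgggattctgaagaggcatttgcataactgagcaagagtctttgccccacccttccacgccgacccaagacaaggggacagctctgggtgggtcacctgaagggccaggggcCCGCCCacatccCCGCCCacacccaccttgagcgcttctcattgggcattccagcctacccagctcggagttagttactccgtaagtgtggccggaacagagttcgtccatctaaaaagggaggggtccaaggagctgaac
Klf2, chr8:72318812-72319111, plus strand: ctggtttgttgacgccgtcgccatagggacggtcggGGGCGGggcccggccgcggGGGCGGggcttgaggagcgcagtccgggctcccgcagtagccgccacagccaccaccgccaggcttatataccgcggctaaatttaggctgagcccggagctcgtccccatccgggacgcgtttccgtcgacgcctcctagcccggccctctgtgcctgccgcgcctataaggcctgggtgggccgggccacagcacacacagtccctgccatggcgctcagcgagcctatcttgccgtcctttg
Each window held the motif, once for Cbx1 and Hat1 and 2 times for Zfp42 and Klf2. It stood in 35.7% of all 32851 promoters of the table and in 64.1% of the 167 promoters of genes assayed here. The letters TATAAA or TTTATA were in none of the 4 windows, and in 13.6% of all promoters and 4.79% of those of assayed genes.

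H3K4 methylation, a mark of active promoters, is laid down by the MLL and SET1 methyltransferases with shared subunits such as ASH2L and CXXC1. Of 9 genes, Mll1 and Ash2l rose, 0 fell and 7 did not pass the test, close to the share of 19.9% higher over all genes, with a list median of 0.86 against 0.32 for all genes. Mll2 gave 0.53, Mll3 2.14 (SE 1.08), Mll5 0.86, Setd1a 0.25, Setd1b -0.03, Cxxc1 0.30 and Setd7 1.91 (SE 2.58), none of them called. Whether Mll1 differed from these enzymes was not tested. In whole embryos Mll3, another large methyltransferase, was at -7.34, -7.94 and -6.79 at the 8-cell stage and at -8.18, -7.70 and -8.23 at the 16-cell stage, with overlapping ranges. In the blastomeres, it was detected in 22 of 24 and in 20 of 20 single cells. Of 6 H3K4 demethylases Kdm1b, an amine oxidase known from oocytes, was called lower by 1.60 (difference -1.60, SE 0.55, adjusted p = 0.024 by limma) and 5 were not called, with a median of -0.52. Kdm1b embryo means ran from -2.76 over -1.84 to -0.06 at the 8-cell stage and were -2.39 and -4.28 at the 16-cell stage, so they overlapped. Its call rested on 4 of 26 16-cell samples without signal: with such samples left out, the difference was 0.31.

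The 3 HP1 genes code for proteins that bind methylated H3K9. Cbx1 and Cbx5 rose and Cbx3 did not pass the test, at a list median of 1.02. Cbx5 embryo means lay between 0.35 and 1.59 at the 8-cell stage and at 2.04 and 2.07 at the 16-cell stage, without overlap. The difference was 1.02 (SE 0.28, adjusted p = 0.00667 by limma), and was -0.34 without control genes and -0.86 in the deposited table. In whole embryos Cbx5 gave 0.68 (adjusted p = 0.201 by limma) with overlapping levels. Cbx3, coding for HP1gamma, was close to level, with embryo means of 1.52 to 2.31 against 1.99 and 1.91 and a difference of -0.03 (SE 1.39).

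PRC2 methylates H3K27, and 4 of its 7 genes rose, 0 fell and 3 did not pass, against 19.9% higher over all genes, at a median of 0.87. In whole embryos 1 of the 7 was called higher (24.4% of all genes) and in dissociated embryos 2 were (17.9%). The 4 were the core subunits Eed (0.87) and Suz12 (0.76) and the accessory subunits Jarid2 (2.22) and Mtf2 (1.18). Without control genes Eed, Suz12 and Mtf2 stood at -0.49, -0.61 and -0.18 and in the deposited table they were also below 0, while Jarid2 stayed above 0 at 0.86 and 0.34. Jarid2 embryo means ran from -0.94 to -0.38 at the 8-cell stage and were 1.13 and 2.07 at the 16-cell stage, and whole 16-cell embryos had 1.41, 1.36 and 1.00. Every 16-cell embryo, whole or dissociated, exceeded every 8-cell embryo. The adjusted p was 0.000134 over embryo means and 0.00551 in whole embryos (limma). Jarid2 was called in both separate comparisons, Mtf2 in dissociated embryos, and Eed and Suz12 in neither. Of 12 genes of PRC1 and related Polycomb proteins 0 rose, 2 fell and 10 did not pass, at a median of -0.39, against 8.33% lower over all genes. Pcgf1, a RING finger subunit of a variant PRC1, had 8-cell embryo means from -0.23 to 1.31 and 16-cell means of -1.59 and -1.28. These did not overlap, and the difference was -1.92 (SE 0.51, adjusted p = 0.00392) over embryo means and -2.31 (SE 0.35, adjusted p = 0.00824) in whole embryos by limma. Scml2, an X-linked Polycomb gene known from the germ line, was detected in 25 of 27 8-cell but in 9 of 26 16-cell samples. Its difference was -5.13 (SE 1.94, adjusted p = 0.0426 by limma), a call kept under 15 of 25 alternatives. In whole embryos Scml2 was not called. It was at -6.14, -6.55 and -5.77 and then at -7.46, -7.88 and -19.76, the last without signal.

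**Figure D3:**
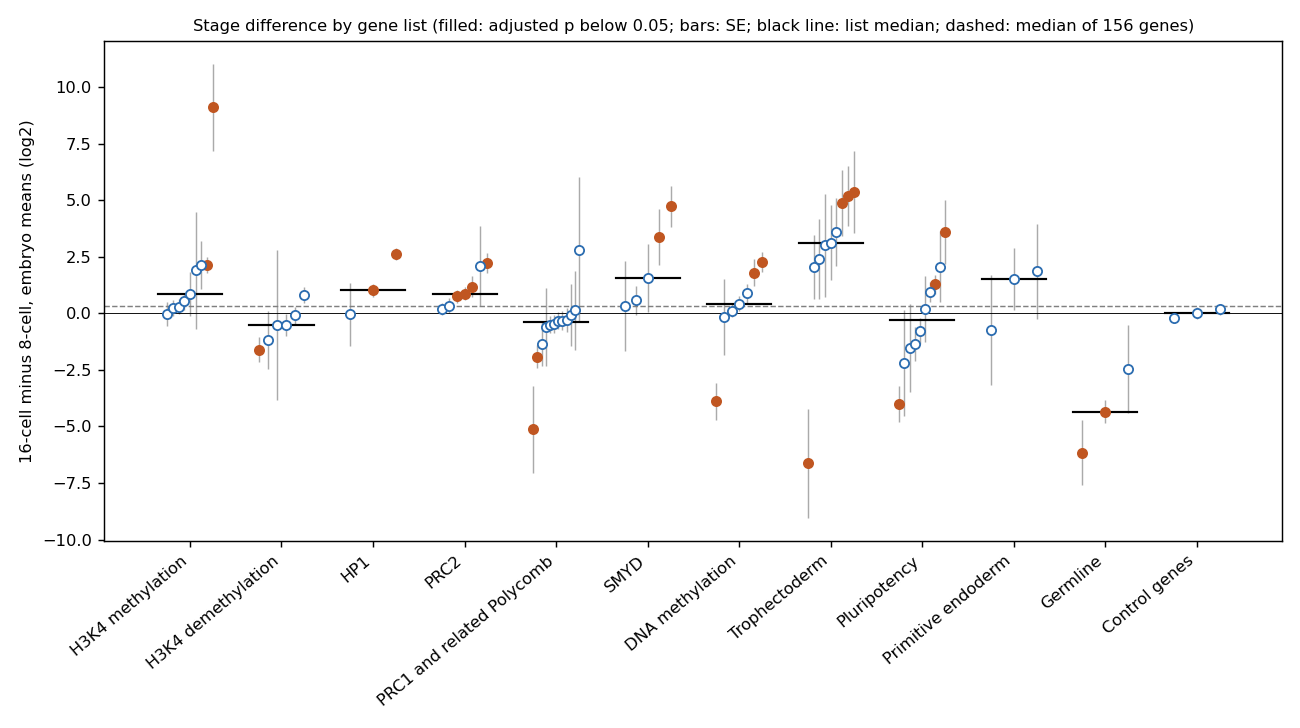
Difference of 16-cell minus 8-cell embryo means (vertical axis, log2) for each gene of 12 lists, with bars of 1 SE; filled orange points have an adjusted p below 0.05, black lines are list medians and the dashed line is the median of 156 genes at 0.32. The trophectoderm list has a median of 3.13 with Hand1 far below it at -6.63, and the germline list has a median of -4.34.

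In the SMYD family, which carries SET and MYND domains, Smyd1 and Smyd3 rose, 0 fell and 3 did not pass. The list median was 1.56, and 19.9% of all genes were higher. Of these 3, Smyd2 was called higher in both whole and dissociated embryos. Smyd2 embryo means ran from -5.01 to -3.62 at the 8-cell stage and were -2.76 and -2.69 at the 16-cell stage, without overlap. Smyd3 was detected in 17 of 27 and then in 26 of 26 samples, and its embryo means of -11.78 to -6.00 lay below those of -4.64 and -4.58. The difference was 4.73 (SE 0.89, adjusted p = 5.73e-05 by limma), while whole embryos gave 1.96 (SE 0.81, adjusted p = 0.124 by limma). Suv420h2, an H4K20 methyltransferase, was detected in 15 of 27 and in 25 of 26 samples and rose by 4.28 (SE 1.45, adjusted p = 0.0229 by limma). Jmjd8, a JmjC-domain gene, was detected in 12 of 27 and in 22 of 26 and rose by 4.03 (SE 1.27, adjusted p = 0.015 by limma). Both were also called in whole embryos, where all samples detected them, at 2.88 and 2.90. Setd3, a methyltransferase of actin, rose by 1.45 over embryo means and was called in both separate comparisons, although its difference was -0.43 in the deposited table.

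Among 7 genes of DNA methylation 2 rose, 1 fell and 4 did not pass, where 19.9% of all genes were higher and 8.33% lower. The de novo methyltransferases Dnmt3a and Dnmt3b rose by 1.79 (SE 0.61, adjusted p = 0.0229) and 2.29 (SE 0.44, adjusted p = 9e-05) by limma. Their embryo means did not overlap between stages, and both were called in whole and in dissociated embryos. For Dnmt3a the difference in the deposited table was -0.08. Tet3, an oxidase of methylcytosine supplied by the oocyte, was detected in 25 of 27 and in 15 of 26 samples and fell by 3.89 (difference -3.89, SE 0.83, adjusted p = 0.000299 by limma). In whole embryos Tet3 was at -4.93, -5.09 and -3.71 and at -5.79, -5.03 and -5.59, which overlapped, and was not called (adjusted p = 0.194 by limma). Dissociated embryos alone gave -3.20 (SE 1.24, adjusted p = 0.118 by limma), so neither separate comparison called it.

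Of 9 trophectoderm genes 3 rose, 1 fell and 5 did not pass, at a median of 3.13 against 0.32 for all genes, of which 19.9% rose and 8.33% fell. In whole embryos 5 were higher and 1 lower at a median of 4.78, beside 24.4% and 3.85% of all genes. In dissociated embryos the counts were 4 and 1 at a median of 3.67, beside 17.9% and 5.77%. Cdx2 was detected in 20 of 27 and in 26 of 26 samples. It ran from -16.35 over -5.73 to -2.53 and from -5.70 over 0.35 to 1.73, so the lowest 16-cell sample lay within the 8-cell range. Among the single 16-cell blastomeres the next lowest was at -2.17, above that range. The difference was 5.35 (SE 1.82, adjusted p = 0.0229 by limma). Krt8, a keratin of simple epithelia, had 8-cell embryo means from -11.08 to -3.59 and 16-cell means of -0.36 and -1.69 and rose by 5.20 (SE 1.32, adjusted p = 0.00276 by limma). Dppa1, grouped here with the trophectoderm genes, rose by 4.88 (SE 1.45, adjusted p = 0.0113 by limma), with 12 of 27 and 18 of 26 samples detecting it.

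Gata3 was not called over all stages (difference 3.13, SE 1.66, adjusted p = 0.18 by limma), although its embryo means of -4.17 to -1.75 lay below 0.53 and 0.55. In whole embryos it was at -2.08, -1.78 and -1.75 and then at 1.89, 1.33 and 2.08. That difference of 3.64 (SE 0.27) had an adjusted p of 0.00279 by limma, and the dissociated embryos gave 3.67 (SE 0.66, adjusted p = 0.0122 by limma). Hand1, a basic helix-loop-helix factor of later trophoblast giant cells, went against the rest of its list. All 27 8-cell samples detected it at levels of -4.78 to 1.58, with a median of -0.29. Of the 26 16-cell samples 16 detected it, with a median of -5.20 and a highest value of 1.72. The embryo means did not overlap, and the difference was -6.63 (SE 2.42, adjusted p = 0.0354 by limma). Whole embryos gave -2.28 (SE 0.31, adjusted p = 0.00665 by limma).

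The late markers Elf5 and Krt19 were detected in few blastomeres but in most whole 16-cell embryos. Elf5 was detected in 0 of 27 8-cell samples, which allows a share of up to 11.11% if samples that share an embryo are counted as independent, and in 4 of 26 16-cell samples. Krt19 was detected in 1 of 27 and in 9 of 26. The whole 16-cell embryos gave levels of -7.11, -5.15 and -5.88 for Krt19, all with signal, and of -18.16, -7.33 and -8.02 for Elf5, the first without signal. Id2, an inhibitor of helix-loop-helix factors, reached 5.00 in a 16-cell blastomere against a highest 8-cell level of -1.49. The 2 dissociated 16-cell embryos differed, at 1.31 and -6.02, and the difference of embryo means was 2.05 (SE 1.40, adjusted p = 0.343 by limma), while whole embryos gave 4.78 (SE 0.51, adjusted p = 0.00388 by limma).

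Of 10 pluripotency genes 2 rose, 1 fell and 7 did not pass, near the shares of 19.9% and 8.33% over all genes, at a median of -0.29. In whole embryos 5 were higher and 1 lower at a median of 0.91 (24.4% and 3.85% of all genes). In dissociated embryos the counts were 3 and 2 at a median of 0.55 (17.9% and 5.77%). The median was thus above 0 in both separate comparisons. It was below 0 only over embryo means, where whole embryos stand in the 8-cell group alone. Nanog was detected in all samples. Its embryo means ran from -3.24 to -1.28 at the 8-cell stage and were 1.39 and 1.14 at the 16-cell stage, and whole 16-cell embryos had 2.24, 1.99 and 2.13. It rose by 3.59 (SE 1.40, adjusted p = 0.0478 by limma), with no overlap between embryos, and kept this call under 12 of 25 alternatives. Pou5f1 rose from embryo means of 3.01 to 3.68 to 4.57 and 4.73, a difference of 1.29 (SE 0.42, adjusted p = 0.0199 by limma) that was -0.07 without control genes and -0.59 in the deposited table.

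Klf2, a Kruppel-like factor, fell. Its levels ran from 0.42 over 1.25 to 2.42 in the 8-cell samples and from -13.30 over -2.36 to 1.45 in the 16-cell samples, of which 24 detected it. The 8-cell samples were tightly grouped and most 16-cell samples lay below them. The difference was -4.01 (SE 0.80, adjusted p = 0.000119) over embryo means and -2.14 (SE 0.35, adjusted p = 0.0116) in whole embryos by limma. Esrrb, an orphan nuclear receptor, was not called over all stages (-1.53, SE 1.95), but gave -1.38 (SE 0.27, adjusted p = 0.0185 by limma) in dissociated embryos. Sox2 was detected in 7 of 27 and in 8 of 26 samples and its embryo means differed by 0.20 (SE 1.47). That 8-cell group includes the whole embryos, at -9.77, -6.99 and -6.15. The dissociated embryos were at -15.24, -12.65, -12.90 and -12.27 at the 8-cell stage and at -9.10 and -12.20 at the 16-cell stage. Whole embryos, which all detected Sox2, gave 4.73 (SE 1.06, adjusted p = 0.0265 by limma). Klf4, Fgf4, Pecam1 and Tbx3 were not called over embryo means, at -0.78, -2.19, -1.35 and 0.93. The negative value of Fgf4 was seen in neither separate comparison, which gave 0.40 in whole and 0.20 in dissociated embryos.

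None of the 3 primitive endoderm genes was called over embryo means, where the list median was 1.52. Gata6, their GATA factor, was detected in every sample, and its embryo means of 0.44 to 1.53 lay below 2.65 and 2.64. The difference of 1.52 had an SE of 1.35 over all stages (adjusted p = 0.49 by limma), but was called in whole embryos (1.82, SE 0.32, adjusted p = 0.0119) and in dissociated embryos (1.36, SE 0.28, adjusted p = 0.0195) by limma. Pdgfra, a receptor tyrosine kinase, gave -0.72 over embryo means and 2.75 (SE 0.68, adjusted p = 0.0394 by limma) in whole embryos. Sox17 was detected in 0 of 27 and in 1 of 26 samples, while the whole 16-cell embryos were at -18.16, -5.96 and -10.62, the first without signal.

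Of the 3 germline genes Dazl and Brdt fell and ZP3 did not pass, at a median of -4.34. Brdt, a bromodomain protein known from spermatocytes, was detected in 27 of 27 and in 20 of 26 samples. Its embryo means of -2.50 to -0.11 lay above those of -5.31 and -6.15, and the whole embryos were at -1.33, -1.50 and -0.11 and at -2.93, -5.02 and -4.85. The groups overlapped in neither set. The difference was -4.34 (SE 0.53, adjusted p = 2.76e-09) over embryo means and -3.29 (SE 0.70, adjusted p = 0.0226) in whole embryos by limma. Dazl, an RNA-binding protein of germ cells, was detected in 12 of 27 and in 1 of 26 samples, with a difference of -6.15 (SE 1.44, adjusted p = 0.000985 by limma). Its 8-cell embryos were unlike, from -14.63 to -3.11, and the dissociated embryos alone gave -3.90 (adjusted p = 0.487 by limma). ZP3, a coat protein of the egg, gave -2.46 over embryo means (adjusted p = 0.42) and was called in whole (-2.19, adjusted p = 0.0444) and dissociated embryos (-2.20, adjusted p = 0.00893) by limma.

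Rbp2, matched to retinol binding protein 2, was detected in 0 of 27 8-cell samples, which allows a share of up to 11.11% on the same count of samples, in 7 of 26 16-cell samples and in all 3 whole 16-cell embryos. Its called difference of 3.98 over embryo means rests on the value given to samples without signal and is no measured size. Smyd1 was detected in 6 of 27 and in 12 of 26, and its call as higher was kept under 14 of 24 alternatives. Setdb2 was called lower over embryo means. These ran from -2.58 to -0.83 at the 8-cell stage and were -3.47 and -2.82 at the 16-cell stage. Whole embryos overlapped for Setdb2, at -1.39, -2.52 and -1.50 and at -2.18, -2.65 and -2.82. The control genes were not called: Hnrnpr gave 0.18, Ssu72 0.01 and Ube2e1 -0.19, and by construction these sum to 0.

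Detection of single genes changed in both directions. In single blastomeres, 94 of 156 genes were detected in all 24 8-cell and all 20 16-cell cells. A further 18 were in all 24 8-cell cells but not in all 16-cell cells, and 6 were in all 20 16-cell cells but not in all 8-cell cells. Without the 16-cell blastomere that stood apart, the 18 became 12. Over all samples, the share of detecting samples was higher at the 16-cell stage for 29 genes and lower for 33. Mll1 rose by over 50 percentage points, and Pax6 and Scml2 fell by as much. The 5 genes with the largest rise were Mll1, Suv420h2, Cbx6, Jmjd8 and Smyd3, and those with the largest fall were Pax6, Scml2, Prdm14, Dazl and Hand1. Prdm14, a PR-domain factor of pluripotent and germ cells, went from 21 of 27 to 8 of 26 samples, and its difference of -4.31 (SE 2.61) had an adjusted p of 0.265 by limma. Cbx6, a Polycomb chromodomain gene, went from 13 of 27 to 23 of 26 samples.

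**Figure D4:**
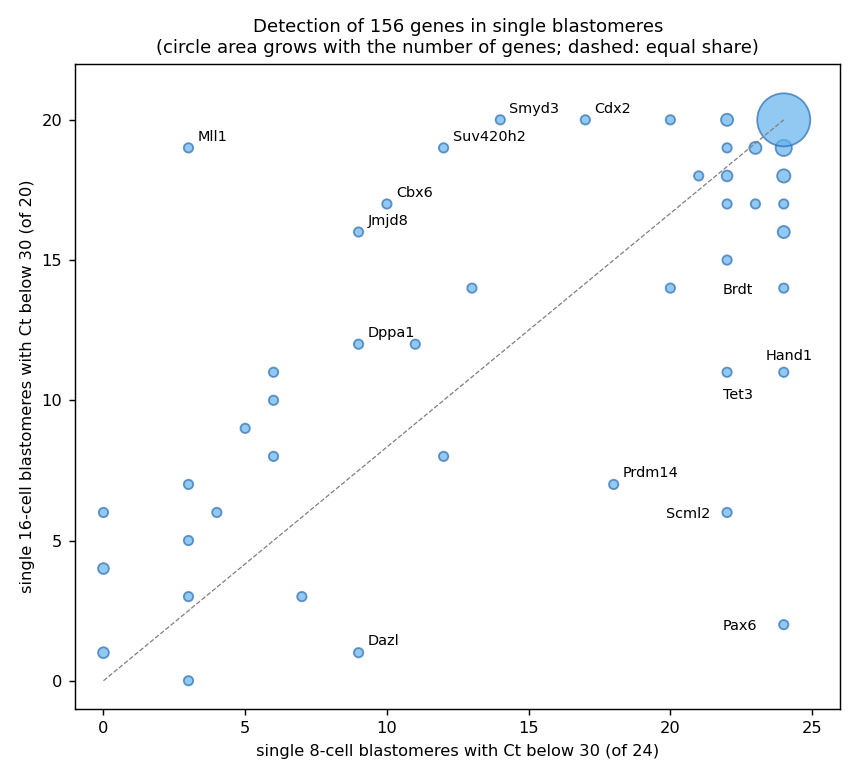
Number of single 16-cell blastomeres (vertical, of 20) against single 8-cell blastomeres (horizontal, of 24) that detected each of 156 genes; circle area grows with the number of genes at a point and the dashed line marks equal shares. The largest circle holds the 94 genes detected in all cells, Pax6 lies at 24 and 2, and Mll1 at 3 and 19.

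The spread between cells of 1 embryo was wider in both 16-cell embryos for a part of the genes. The SD between single blastomeres of 1 embryo had a median over genes of 0.463 to 0.666 in the 4 dissociated 8-cell embryos and of 0.742 and 1.04 in the 16-cell embryos, a difference that was not tested. Both 16-cell embryos exceeded every 8-cell embryo for 52 of 156 genes and lay below all of them for 5. Among the 94 genes with signal in every cell, these counts were 27 and 2, and the medians lay closer, at 0.347 to 0.522 against 0.538 and 0.717. The control genes Hnrnpr and Ssu72 were among both the 52 and the 27, while Ube2e1 was not. The 16-cell blastomere that stood apart was kept in the SD of embryo 5. The SDs of 8-cell embryos 4 to 7 rest on 8, 8, 5 and 3 cells, and those of the 16-cell embryos on 10 each. Single 16-cell blastomeres also had a higher mean control Ct, 16.04 against 15.21. Whether less template widened the spread was not tested.

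Several lineage genes varied together within 16-cell embryos. Gata3 was detected in all single cells and ran from -4.75 to 3.03 in 20 16-cell blastomeres, against -7.53 to -0.71 in 24 8-cell blastomeres. Across the 10 single cells of 16-cell embryo 4, Gata3 correlated with Cdx2 at a Pearson r of 0.816, and across the 10 of embryo 5 at 0.906. In 8-cell embryos 4 and 5, with 8 cells each, r was 0.405 and -0.075. Cdx2 had signal in 4 and 5 of those 8 cells, but in all 10 cells of each 16-cell embryo. The 8-cell correlations thus rest partly on values given to cells without signal. All these correlations are descriptions over cells that share an embryo and, through the control genes, a denominator. Without the control genes, r between Gata3 and Cdx2 was 0.844 and 0.808 in the 16-cell embryos. Of the 8 other trophectoderm genes 5 had a positive r with Gata3 in both 16-cell embryos and 3 a negative one. The positive ones besides Cdx2 were Tspan8, a tetraspanin, at 0.812 and 0.832, Dppa1 at 0.923 and 0.739, Krt8 at 0.852 and 0.512 and Id2 at 0.58 and 0.772. Of the 10 cells of each embryo, Tspan8 had signal in 6 and 8, Dppa1 in 6 and 6 and Id2 in 10 and 4. The negative ones were Hand1 at -0.496 and -0.939, Krt19 at -0.155 and -0.564 and Elf5 at -0.28 and -0.134. Hand1 had signal in 7 and 4 of the 10 cells, Krt19 in 4 and 2 and Elf5 in 1 and 3. By rank Krt19 was not negative, with a Spearman rho of 0.042 and 0.03. Elf5 was of mixed sign without the control genes.

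Of the 12 pluripotency and primitive endoderm genes with signal in both 16-cell embryos, 9 had a negative r with Gata3 in both and 3 were of mixed sign, while without the control genes these counts were 7 and 5. Pdgfra correlated with Gata3 at -0.694 and -0.816 in 16-cell embryos 4 and 5, and at -0.642 and -0.868 without the control genes. Sox2, with signal in 4 and 2 of the 10 cells, gave -0.808 and -0.691, and -0.771 and -0.559 without the control genes. Klf2 was weaker without them, at -0.642 and -0.674 and then at -0.428 and -0.348. Pou5f1, at -0.44 and -0.751, turned to 0.401 in embryo 4 and -0.268 in embryo 5. Gata6 gave -0.013 and -0.768, and the genes of mixed sign were Tbx3 at 0.471 and -0.615, Zfp42 at 0.2 and -0.102, and Nanog at 0.006 and -0.346. In 8-cell embryos 4 and 5 the values for Hand1 were -0.437 and 0.092. Sox2 and Dppa1 were both detected in 1 of 20 single 16-cell cells, Sox2 alone in 5, Dppa1 alone in 11 and neither in 3. All 6 cells with Sox2 also had Pdgfra, which 9 other cells had as well.

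**Figure D5:**
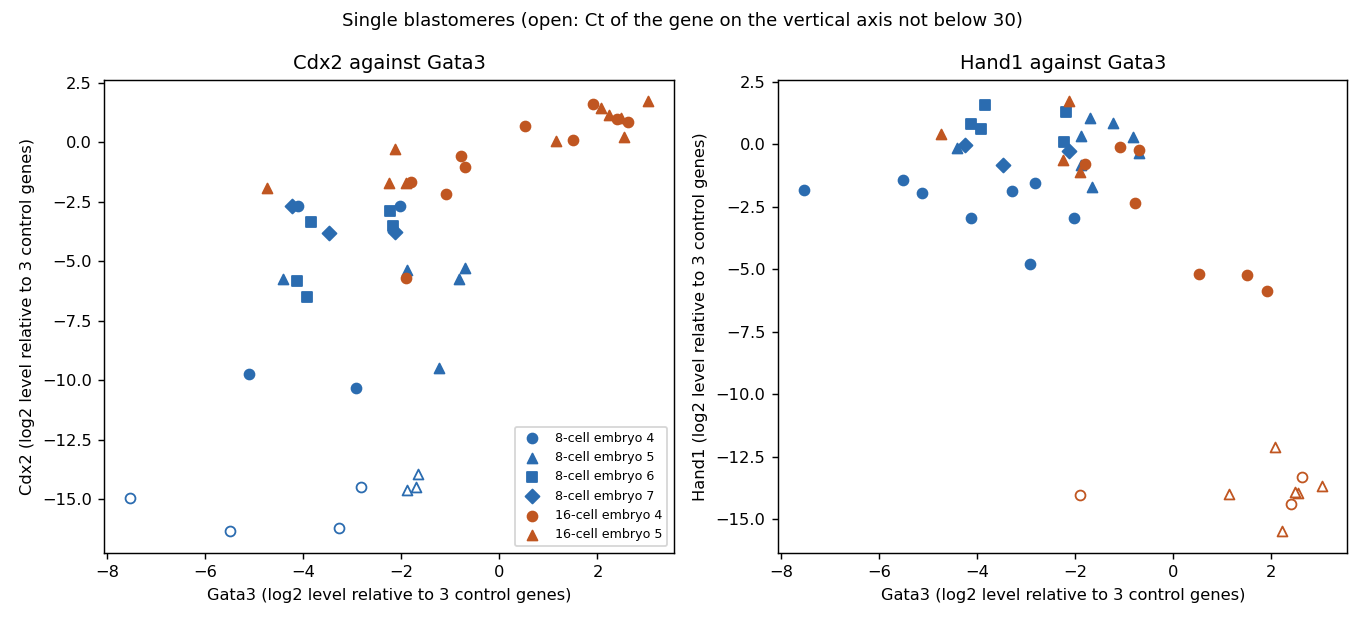
Cdx2 (left) and Hand1 (right) against Gata3 in single blastomeres (all axes log2 relative to 3 control genes), coloured by stage with a symbol for each embryo; open symbols had no signal for the gene on the vertical axis. In 16-cell embryos 4 and 5 Cdx2 rises with Gata3 (r of 0.816 and 0.906) and Hand1 falls (-0.496 and -0.939), while 8-cell cells show lower Gata3 with Hand1 detected throughout.

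Sex-linked transcripts are carried by the embryo, so they were read embryo by embryo. Kdm5d, a Y-linked H3K4 demethylase, was detected in all 3 cells of 8-cell embryo 7, at -3.29, -0.90 and -0.84, and in no other sample of either stage. With 2 dissociated and 3 whole 16-cell embryos, its absence there says little about the stage. Its call as lower in whole embryos (-2.42, adjusted p = 0.0394 by limma) compares values of embryos without signal and measures no change. Xist, the RNA that coats the inactive X chromosome, was detected in 25 of 27 and in 25 of 26 samples, and whole 8-cell embryo 3 and 1 cell of embryo 7 had no signal. Both dissociated 16-cell embryos and 8-cell embryos 1, 2, 4, 5 and 6 thus had Xist and no Kdm5d. Of the 7 X-linked genes Scml2 was called lower, as given above, and the other 6 were not called, with a median of 0.23.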

How the data were processed

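RNA of single blastomeres, groups of blastomeres and whole embryos was reverse transcribed, pre-amplified with all primer pairs and measured on BioMark chips with EvaGreen, per the study's methods. The authors deposited Ct values (here called a score, with undetected reactions at 30) for 192 genes, of which 36 failed their quality control and 156 were used. The authors also deposited a normalized log2 table, which equals 30 minus Ct relative to Gapdh, Hspa8 and Lmnb1 to within 1.03e-08, genes that it marks as failed; it served as an alternative. Both tables are qPCR values, so sequencing depth does not apply, and the number of embryos limits the precision.

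Values were set relative to Hnrnpr, Ssu72 and Ube2e1 and averaged per embryo. The comparison of embryo means was fitted with limma 3.58.1 in R 4.3.3 on 58 units of 8 stages (168 samples), which share 1 estimate of the spread. The units were oocytes and embryos, but 1 averaged earlier blastomeres whose labels name no embryo. Benjamini-Hochberg adjustment ran over 156 genes, with a threshold of 0.05. Whole embryos, and dissociated embryos, were fitted alone. The fits were tested on simulated data. Figures were drawn with matplotlib and promoter sequences copied from RefSeq. Genes were named by rule: Pax6, Mll1, Cbx1 and Ash2l; the 10 largest called differences in each direction; the 5 largest rises and falls in detection; all genes of the H3K4 methylation, HP1, trophectoderm, pluripotency, primitive endoderm and control lists; and genes called in both whole and dissociated embryos. Genes outside it (such as Eed, Suz12, Mtf2, Kdm5d and Xist) were picked after their values were seen. The members, gene lists and tests were chosen with earlier results of these data known. Alternatives covered the control genes, scaling, undetected values, the filter on detection, the samples in the fit, the unit of replication and leaving out each embryo. Same-numbered whole embryos did not deviate together (correlations -0.071, -0.037 and -0.025). Primer sequences were not used here.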

Additional observations from a re-analysis of the deposited data

Results flagged for a closer look

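Among 60 named genes, 3 had an 8-cell embryo whose mean lay far from the other 6. Chance gives such a flag for about 1 gene in 20, so 3 of 60 is no more than chance gives. Hand1 was at -2.42 in 8-cell embryo 4, while the next lowest embryo was at -0.394. Krt19 was at -8.47 in whole 8-cell embryo 1, the only 8-cell sample that detected it, while the next highest value was -14.4. Creb3l2 was at -10.5 in whole 8-cell embryo 3, against -12.4 in the next highest.

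The stage difference itself differed between whole and dissociated embryos for 1 of 156 genes (0.641%), with 12 at an unadjusted p below 0.05 by limma. For Cbx6 the whole-embryo difference minus the dissociated one was -4.79 (adjusted p = 0.0154 by limma): the difference was 0.97 in whole embryos, which all detected the gene, and 5.76 in dissociated embryos, where 10 of 24 single 8-cell and 17 of 20 single 16-cell blastomeres did.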

How the results depend on the processing

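For embryo means, main counts of 31 higher and 13 lower became 1 higher without normalization, 18 higher relative to the sample median, and 3 higher and 76 lower in the deposited table. With every sample as a replicate they were 63 and 20, with embryo as a random block 48 higher, with undetected samples left out 7 lower, and with linear means weighted by cells 5 lower. Leaving out 1 embryo gave 11 to 30 higher and 6 to 14 lower, the lowest counts without a 16-cell embryo, where the remaining one was assumed to vary like the others. For whole embryos, 38 higher and 6 lower became 133 and 0 without normalization, 17 and 24 relative to the sample median, and 8 and 110 in the deposited table. The replicate block, which pairs embryos by number, gave 16 and 3, and leaving out 1 embryo gave 16 to 42 and 3 to 7. For dissociated embryos, 28 and 9 became 16 higher without Ube2e1, 14 higher without normalization, 17 and 16 relative to the sample median, and 7 and 51 in the deposited table, and leaving out 1 embryo gave 5 to 27 and 3 to 10.

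Of 1487 values of 60 named genes under alternatives, 1296 kept their direction and side of the threshold, though 65 of these are uncalled differences that changed sign; 117 lost the call, 61 gained one and 13 reversed. In the deposited table these were Mll2 (-1.34), Setd1a (-1.63), Cxxc1 (-1.58), Cbx5 (-0.86), Pou5f1 (-0.59), Hnrnpr (-1.69), Ssu72 (-1.86), Dnmt3a (-0.083) and Setd3 (-0.43); without normalization, Cbx5 (-0.34) and Pou5f1 (-0.073); and for Kdm1b, 0.31 with undetected samples left out and 0.48 with linear means. The reversals under other scalings follow from the shift that every gene shares, and the source of that shift was not tested. For Kdm1b both settings change how samples without signal count. Pax6, Brdt, Klf2 and Mll1 kept their call under all 25 alternatives, with differences of -12.4 to -2.63 for Pax6 and 3.96 to 10.3 for Mll1. Leaving out the 16-cell blastomere with 44 undetected genes, an alternative chosen after seeing the data, gave 29 higher and 11 lower.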
